A study of Homo sapiens with 12 samples.

Results

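The genes described here are the prolactin receptor gene PRLR, the transcription factor genes STAT5A, STAT5B and STAT3, the feedback inhibitor genes CISH, SOCS1, SOCS2 and SOCS3, and the antisense transcript SOCS2-AS1. They are 9 of the 59609 gene symbols in a count table from CAMA-1, an ER-positive (oestrogen receptor-positive) human breast cancer cell line. They were picked by symbol, with their levels in these libraries already known, so their levels and fold changes are given as a description and without p-values. Of the 9 genes, 7 passed the filter on low counts, as did 11803 genes in all; STAT5A and SOCS1 did not.

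Wild-type CAMA-1 cells were treated for 5 days with the vehicle DMSO, with abemaciclib, an inhibitor of the cell-cycle kinases CDK4 and CDK6, at 100 nM, with fulvestrant, a selective ER degrader, at 5 nM, or with both drugs. For the combination no doses are stated separately. There were 3 libraries in each of 4 groups, stated to be biological replicates of 1 experiment in 1 cell line, and RNA was counted from tags at the 3′ end of polyadenylated transcripts. Levels are CPM values, that is read counts scaled to a common library size, and appear as mean ± SD over 3 libraries or library by library.

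Prolactin, secreted by the pituitary and by some breast tissue, binds its receptor on the cell surface. The receptor carries the kinase JAK2, which phosphorylates STAT5; STAT5 dimers then enter the nucleus and drive genes of alveolar growth and milk production. Among their immediate targets are CISH and SOCS2, whose proteins bind the activated receptors or kinases and dampen the signal. Cytokines of the interleukin-6 family act in the same manner through the shared receptor subunit gp130 and STAT3, with SOCS3 as the main feedback inhibitor.

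The sequence upstream of CISH is shown because CISH is the textbook STAT5 target, and the window of SOCS3, a feedback gene of STAT3, is set beside it for comparison. Each is the 250 bases before an annotated start, 5′ to 3′ on the strand of the gene, from RefSeq on GRCh38.p14. Capitals mark the letters TTCNNNGAA, a core that STAT dimers recognise, those of STAT5 among them. This motif reads the same on both strands.
CISH, chr3:50611775-50612024, minus strand: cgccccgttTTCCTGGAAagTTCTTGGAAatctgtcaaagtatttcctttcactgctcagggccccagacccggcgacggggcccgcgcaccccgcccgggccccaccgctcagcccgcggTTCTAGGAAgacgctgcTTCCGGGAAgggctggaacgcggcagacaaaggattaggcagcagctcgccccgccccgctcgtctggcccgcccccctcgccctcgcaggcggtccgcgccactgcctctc
SOCS3, chr17:78360926-78361175, minus strand: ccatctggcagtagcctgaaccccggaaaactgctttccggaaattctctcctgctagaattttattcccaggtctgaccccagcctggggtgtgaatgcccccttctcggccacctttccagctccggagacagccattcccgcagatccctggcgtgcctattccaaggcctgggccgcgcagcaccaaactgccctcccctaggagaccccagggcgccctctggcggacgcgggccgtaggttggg
CISH held 4 copies, with first bases at −241, −230, −129 and −112 from the start. RefSeq windows were matched for 7 of the 9 genes, SOCS2 and SOCS2-AS1 being the others. Among the 7, CISH alone held the motif in its window. RefSeq starts can differ from the gene starts given below. For SOCS3 they were 78360925 (printed window) and 78359667, while the gene start below is 78360077. For STAT5B the RefSeq start was 42276391 and the gene start 42288633. The bases just before those gene starts of SOCS3 and STAT5B were thus not scanned, and the contrast with CISH holds only for the windows used. Of 35116 such windows over all genes, 6.57% held at least 1 copy and 0.0142% at least 4. The letters GGTCANNNTGACC, a full palindromic oestrogen response element, were in none of the windows of the 7 genes and in 0.0399% of all windows. These are matches of letters, not measured binding.

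Library totals ranged from 3299119 to 5164667 counts, and each of the 12 libraries correlated best with one of its own group. Fulvestrant replicates 2 and 3 were the least alike of any 2 libraries of a group, with a correlation of 0.970. The best correlation within the group was 0.981 for replicate 2 and 0.978 for replicate 3, the lowest of the 12 libraries. Without fulvestrant replicate 3 the log2 fold changes for fulvestrant against DMSO were 0.94 for PRLR, 0.78 for STAT3, 0.57 for CISH, 3.17 for SOCS2, 3.63 for SOCS2-AS1, 0.17 for SOCS3 and −0.18 for STAT5B. Mitochondrial genes took 12.0% to 12.5% of counts in DMSO and 15.6% to 20.6% in the treated libraries, so this share moved with treatment, and its part in the differences was not tested. All 10 luminal markers were measured, with a summed level of 6437 to 6745 CPM in DMSO and 7387 to 8409 CPM in the treated libraries. The list did not move as one. TFF1 was at 60.5 CPM in DMSO, 381.5 with abemaciclib, 1.46 with fulvestrant and 2.32 with the combination. PGR was at 14.5, 25.9, 0.593 and 1.77 CPM in the same order. ESR1, the ER gene, was at 93.3 ± 5.42 CPM with DMSO, 102.7 ± 3.43 with abemaciclib, 95.3 ± 10.3 with fulvestrant and 81.5 ± 4.52 with both. Of 6 basal or myoepithelial markers 2 passed the filter, ACTA2 and OXTR, and the list summed to 8.74 to 11.3 CPM in DMSO and to between 26.5 and 33.6 CPM in the treated libraries, while KRT5 had at most 1 read in any library. Of 6 fibroblast markers 2 passed the filter, COL1A1 and COL3A1, and the list summed to 17.8 to 21.7 CPM in DMSO and to between 23.7 and 36.9 CPM in the treated libraries, with COL1A2, DCN, LUM and PDGFRB at 0 throughout. The 6 leukocyte markers summed to at most 1.73 CPM, with CD3E and HBB at 0, and the 3 endothelial markers to at most 0.846 CPM, with PECAM1 and CDH5 at 0. The part of the marker lists that moved with treatment in the results below was not tested. In bulk RNA, fewer cells of a type and less RNA per cell cannot be told apart.

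**Figure D1:**
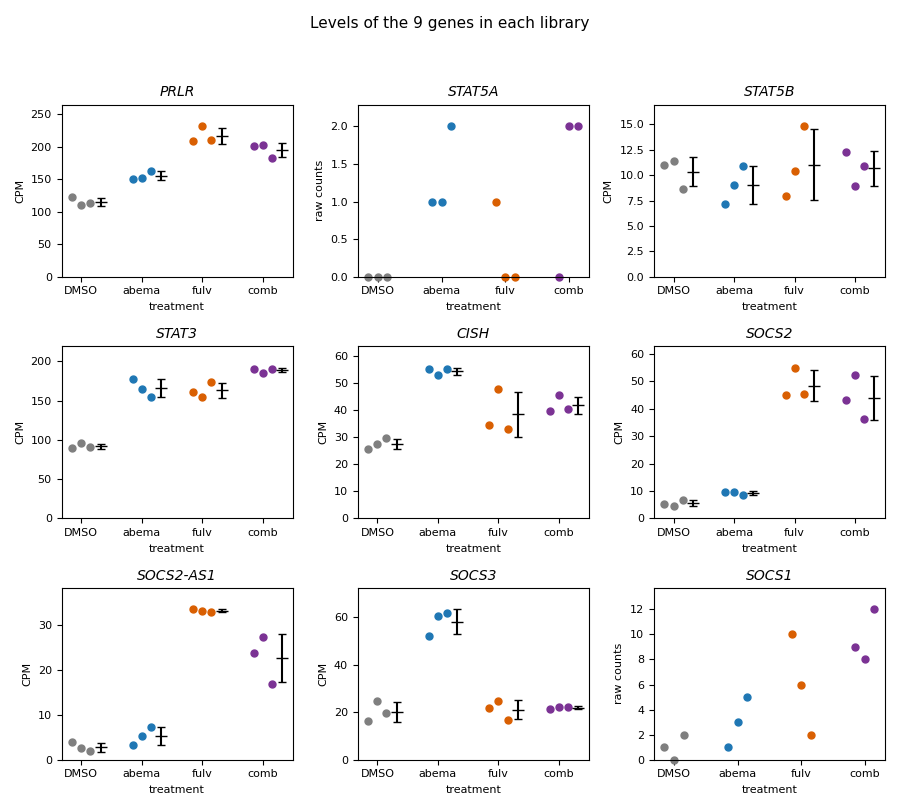
Levels of the 9 genes by treatment (x axis), in CPM or, for STAT5A and SOCS1, raw counts (y axis). Each point is 1 library and the black bars give mean ± SD of 3 libraries; SOCS2 and SOCS2-AS1 are high with fulvestrant and the combination, SOCS3 is high with abemaciclib alone, and STAT5B overlaps in all 4 groups.

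The receptor gene had separate levels in all 4 groups. PRLR (chr5:35048756-35230487, minus strand) was at 122.3, 110.0 and 113.3 CPM in the 3 DMSO libraries, at 150.9, 151.2 and 163.0 with abemaciclib, at 208.5, 231.3 and 209.7 with fulvestrant and at 201.6, 202.0 and 183.1 with both drugs. No 2 groups overlapped, and the order from lowest to highest was DMSO, abemaciclib, combination and fulvestrant. The log2 fold change against DMSO, with its standard error, was 0.43 ± 0.08 for abemaciclib, 0.91 ± 0.08 for fulvestrant and 0.77 ± 0.08 for the combination. The combination lay 0.34 ± 0.08 above abemaciclib alone and 0.15 below fulvestrant alone (−0.15 ± 0.08). PRLR was higher with abemaciclib than with DMSO in every library. It was lower in every library with abemaciclib plus fulvestrant than with fulvestrant alone, but the 95% interval of that difference ran from −0.31 to 0.016.

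The pair of STAT5 genes, close paralogues that lie head to head on chromosome 17, showed no such separation. STAT5B (chr17:42199176-42288633, minus strand) was at 10.4 ± 1.46 CPM with DMSO, 9.04 ± 1.83 with abemaciclib, 11.1 ± 3.49 with fulvestrant and 10.7 ± 1.70 with both, and the libraries of all 4 groups overlapped. Its 95% intervals against DMSO on the log2 scale ran from −0.69 to 0.28 for abemaciclib, from −0.37 to 0.58 for fulvestrant and from −0.43 to 0.51 for the combination. STAT5A (chr17:42287547-42311943, plus strand) had no reads in the 3 DMSO libraries, 1, 1 and 2 reads with abemaciclib, 1, 0 and 0 with fulvestrant, and 0, 2 and 2 with the combination. It stayed at or under 3 reads in every library, so no fold change is given, and a count of 0 allows up to 0.682 CPM in a DMSO library of mean size. The annotated exons of the 2 genes share 415 bases on opposite strands, 6.50% of those of STAT5A. The overlap lies at the starts of both genes, while tags were taken at the 3′ end of transcripts. Whether reads of the pair were split between them in counting was not tested.

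STAT3 (chr17:42313324-42388540, minus strand), the factor that carries interleukin-6 signals, had counts far above the floor in every library. It was at 89.6, 95.4 and 90.5 CPM in DMSO, at 177.5, 164.7 and 154.9 with abemaciclib, at 160.8, 154.9 and 173.2 with fulvestrant and at 190.3, 185.5 and 190.7 with both drugs. All treated libraries lay above all DMSO libraries, the single-drug groups overlapped, and every combination library lay above both. Against DMSO the log2 fold change was 0.85 ± 0.08 for abemaciclib, 0.83 ± 0.08 for fulvestrant and 1.04 ± 0.08 for the combination. The combination lay 0.19 ± 0.08 above abemaciclib and 0.21 ± 0.08 above fulvestrant.

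Among the feedback inhibitors, CISH and SOCS3 were highest with abemaciclib alone. CISH (chr3:50606489-50611774, minus strand), whose protein binds phosphorylated receptor tails and is the classical STAT5 target, was at 25.5, 27.4 and 29.6 CPM in DMSO and at 55.2, 53.0 and 55.1 with abemaciclib. It was at 34.3, 48.0 and 33.0 CPM with fulvestrant and at 39.7, 45.5 and 40.4 with the combination. DMSO was below and abemaciclib above all other libraries, while fulvestrant and the combination overlapped. The log2 fold change against DMSO was 0.98 ± 0.13 for abemaciclib, 0.47 ± 0.14 for fulvestrant and 0.60 ± 0.13 for the combination, and the combination lay below abemaciclib by −0.38 ± 0.12. Fulvestrant replicate 2 set much of the fulvestrant value, which was 0.29 without that library.

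SOCS3 (chr17:78356778-78360077, minus strand), which blocks gp130 and JAK kinases, stood out with abemaciclib alone. Its levels were 16.3, 24.7 and 19.4 CPM in DMSO, 52.0, 60.3 and 61.7 with abemaciclib, 21.7, 24.5 and 16.6 with fulvestrant and 21.2, 22.3 and 21.9 with the combination. The 3 abemaciclib libraries stood above the other 9, which overlapped among themselves. On the log2 scale the difference from DMSO was 1.50 ± 0.15 with abemaciclib, 0.02 ± 0.16 with fulvestrant and 0.09 ± 0.16 with the combination, for which the 95% interval ran from −0.23 to 0.42. The combination lay below abemaciclib by −1.41 ± 0.14, a fold of 2.65.

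SOCS2 and its antisense transcript had the largest fold changes with fulvestrant among the 7 genes that passed the filter. SOCS2 (chr12:93569814-93583487, plus strand), whose protein restrains growth hormone signalling as part of a ubiquitin ligase, was at 5.34, 4.56 and 6.61 CPM in DMSO and at 9.60, 9.49 and 8.59 with abemaciclib. It was at 45.0, 55.0 and 45.4 CPM with fulvestrant and at 43.3, 52.5 and 36.3 with the combination. The DMSO libraries lay below those with abemaciclib, these lay below all with fulvestrant, and fulvestrant and the combination overlapped. The log2 fold change against DMSO was 0.75 ± 0.23 with abemaciclib, 3.13 ± 0.18 with fulvestrant, a fold of 8.75, and 2.99 ± 0.18 with the combination. The combination differed from fulvestrant by −0.13 ± 0.14, with a 95% interval from −0.41 to 0.15.

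SOCS2-AS1 (chr12:93542022-93571768, minus strand), a long non-coding RNA, was at 3.86, 2.66 and 1.86 CPM in DMSO and at 3.20, 5.30 and 7.33 with abemaciclib. With fulvestrant it was at 33.6, 33.3 and 33.0 CPM, and with the combination at 23.8, 27.5 and 16.9. DMSO and abemaciclib overlapped, and every combination library lay above these and below every fulvestrant library. Against DMSO its log2 fold change was 0.93 ± 0.34 with abemaciclib, 3.62 ± 0.26 with fulvestrant and 3.06 ± 0.27 with the combination, and the combination differed from fulvestrant by −0.56 ± 0.18. The abemaciclib value was 0.64 without abemaciclib replicate 3 and 0.71 without DMSO replicate 3.

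The 2 transcripts are read from opposite strands and their annotated exons share 277 bases, 4.28% of those of SOCS2 and 6.24% of those of SOCS2-AS1. The strand setting of the counting is not given, so reads from the shared bases cannot be told apart. These bases lie at the starts of both genes, while tags were taken at the 3′ end of transcripts. How many reads fell on them was not tested. The ratio of SOCS2 to SOCS2-AS1 reads ran from 1.38 to 3.56 in DMSO and from 1.17 to 3.00 with abemaciclib. It was 1.34 to 1.65 with fulvestrant and 1.82 to 2.15 with the combination. The combination libraries thus lay above the fulvestrant libraries in this ratio. The DMSO range covered all combination libraries and 1 of the 3 fulvestrant libraries, the other 2 lying just below it.

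SOCS1 (chr16:11254417-11256204, minus strand), an inhibitor of JAK kinases best known for interferon signalling, had few reads. It had 1, 0 and 2 reads in DMSO, 1, 3 and 5 with abemaciclib, 10, 6 and 2 with fulvestrant and 9, 8 and 12 with the combination. Every combination library lay above every DMSO and abemaciclib library. Pooled over the 3 libraries, the ratio to DMSO on library totals was 2.87 with abemaciclib (95% interval 0.716 to 16.5), 6.49 with fulvestrant (1.89 to 34.4) and 9.14 with the combination (2.83 to 46.9). These are exact intervals that cover counting error only.

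**Figure D2:**
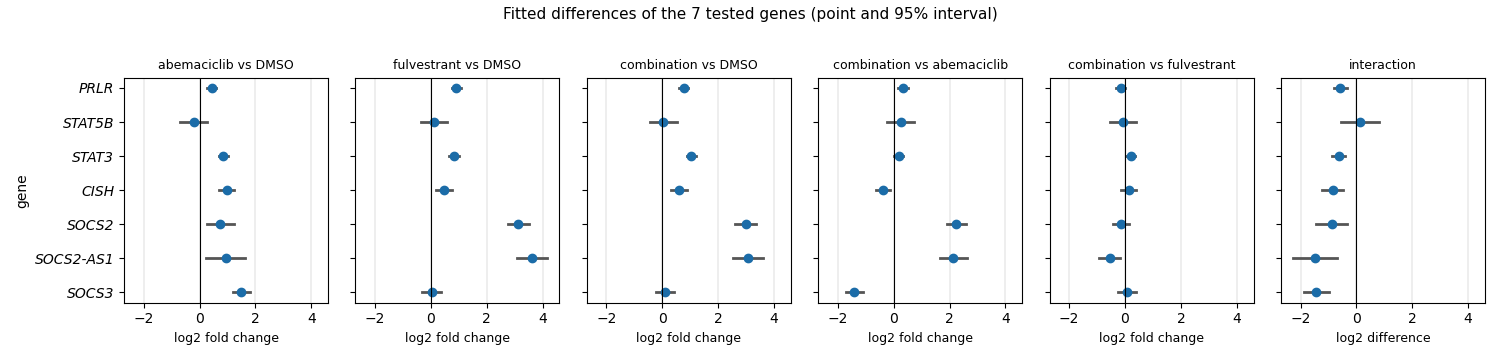
Fitted log2 fold changes (x axis) of the 7 genes that passed the filter (y axis) in 5 comparisons and in the interaction, which is the log2 change by abemaciclib with fulvestrant present minus that without it. Points are estimates and lines their 95% intervals; SOCS2 and SOCS2-AS1 lie near 3 or above against DMSO with fulvestrant and with the combination, and the interaction is below 0 for all but STAT5B.

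Counted with edgeR's quasi-likelihood test at an adjusted p of 0.05, 6 of the 7 genes were called higher with abemaciclib than with DMSO, a comparison in which 41.2% of all genes tested were called. With fulvestrant 5 were called higher, against 51% of all genes called, and with the combination 5 were called higher, against 55.2%. Against abemaciclib alone the combination had 3 called higher and 2 lower, with 33.5% of all genes called. Against fulvestrant alone it had 0 of 7 by edgeR and 0 by DESeq2, with 2 at an unadjusted p under 0.05 (STAT3 and SOCS2-AS1) and 1.92% of all genes called. In the interaction 6 of 7 were called, all negative, with 21.1% of all genes called. Since the genes were chosen on these values, nothing is read from these counts. The comparisons share their control libraries and are not independent of each other.

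The interaction values show how far the effect of abemaciclib differed when fulvestrant was also present. They were −0.58 ± 0.11 for PRLR, −0.64 ± 0.11 for STAT3, −0.85 ± 0.18 for CISH, −0.88 ± 0.27 for SOCS2, −1.49 ± 0.39 for SOCS2-AS1, −1.43 ± 0.22 for SOCS3 and 0.14 ± 0.33 for STAT5B. The estimate was below 0 for all but STAT5B. Without DMSO replicate 2 the SOCS2 value was −0.75 and was no longer called. As the genes were chosen on these values, nothing is read from that call or its loss.

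The rest of the pathway was described from 8 lists with 80 genes in all, of which 47 passed the filter. Of these, 20 were called with abemaciclib (17 rose and 3 fell, 42.6% of those tested), 29 with fulvestrant (21 and 8, 61.7%) and 28 with the combination (19 and 9, 59.6%), all against DMSO. Beside the shares over all genes of 41.2%, 51% and 55.2%, these are near the background. The median log2 fold change of the 47 genes was 0.18, 0.32 and 0.34 in the same order, with medians over all genes between 0.0005 and 0.010. Between the combination and abemaciclib 13 were called (7 rose and 6 fell, 27.7%). Between the combination and fulvestrant edgeR called 0, with 2 at an unadjusted p under 0.05. The interaction was called in 16 of 47 (1 positive and 15 negative, 34.0%), beside 21.1% of all genes.

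Ligand genes had few or no reads. None of the 10 ligand genes passed the filter, and 8 had no reads in any library, among them PRL for prolactin, GH1 for growth hormone, IL6, LIF and OSM. A count of 0 allows up to 3 reads in a library. IL11 reached 11 reads in its highest library and CLCF1 2 reads.

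Of 22 cytokine receptor genes 14 passed the filter, and 7 rose with abemaciclib (50% of those tested), 7 rose and 2 fell with fulvestrant (64.3%), and 7 rose and 2 fell with the combination (64.3%). These shares stand beside 41.2%, 51% and 55.2% of all genes tested. IL6ST, which encodes gp130, was at 61.4, 62.1 and 50.0 CPM in DMSO, at 128.3, 117.0 and 126.8 with abemaciclib, at 33.1, 43.2 and 37.1 with fulvestrant and at 40.2, 34.3 and 37.1 with the combination. It rose with abemaciclib by 1.10 ± 0.11 on the log2 scale (adjusted p = 2.4e-09) and fell with fulvestrant, with a log2 fold change of −0.62 ± 0.12 (adjusted p = 7.44e-05). The combination lay below abemaciclib by −1.74 ± 0.11 (adjusted p = 8.03e-13). IL6R, the interleukin-6 receptor itself, rose in all 3 treatments, by 1.50 ± 0.15 with abemaciclib (adjusted p = 7.62e-09), 1.21 ± 0.16 with fulvestrant (adjusted p = 3.37e-07) and 1.49 ± 0.15 with the combination (adjusted p = 3.48e-09).

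The homodimeric receptors closest in kind to PRLR differed in their pattern. EPOR, the erythropoietin receptor, was at 4.48 ± 0.303 CPM in DMSO, 9.94 ± 1.05 with abemaciclib, 18.8 ± 2.37 with fulvestrant and 19.8 ± 1.07 with the combination. It rose by 1.12 ± 0.22 (adjusted p = 0.000154), 2.04 ± 0.20 (adjusted p = 2.11e-09) and 2.12 ± 0.20 (adjusted p = 5.05e-10). GHR, the growth hormone receptor, was chosen after its values were seen. It was at 44.5, 54.0 and 57.5 CPM in DMSO, at 55.0, 43.9 and 55.3 with abemaciclib, at 103.0, 97.6 and 100.0 with fulvestrant and at 92.6, 106.9 and 104.7 with the combination. The log2 fold change of GHR with abemaciclib was −0.03 ± 0.11 and did not pass the test, while it rose by 0.94 ± 0.11 with fulvestrant (adjusted p = 3.16e-08) and by 0.96 ± 0.11 with the combination (adjusted p = 1.57e-08).

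Some receptors for other cytokines were among the 7 of 14 tested receptor genes called with abemaciclib (50%, beside 41.2% of all genes tested). IFNGR2, a chain of the interferon-γ receptor, rose by 1.28 ± 0.17 with abemaciclib (adjusted p = 5.01e-07), 0.99 ± 0.17 with fulvestrant (adjusted p = 2.17e-05) and 0.85 ± 0.17 with the combination (adjusted p = 0.000125). IL4R and IL13RA1, the chains of the type II interleukin-4 receptor, were chosen after their values were seen. IL4R was at 6.32 ± 1.52 CPM in DMSO, 16.5 ± 2.03 with abemaciclib, 10.2 ± 1.51 with fulvestrant and 9.73 ± 1.83 with the combination, and its rise with abemaciclib was 1.34 ± 0.21 (adjusted p = 1.28e-05). Its calls with fulvestrant and with the combination did not hold without DMSO replicate 1 (0.51 and 0.46). IL13RA1 rose by 0.77 ± 0.11, 0.90 ± 0.11 and 0.95 ± 0.11 in the 3 treatments, with adjusted p of 1.94e-06, 8.33e-08 and 2.12e-08.

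**Figure D3:**
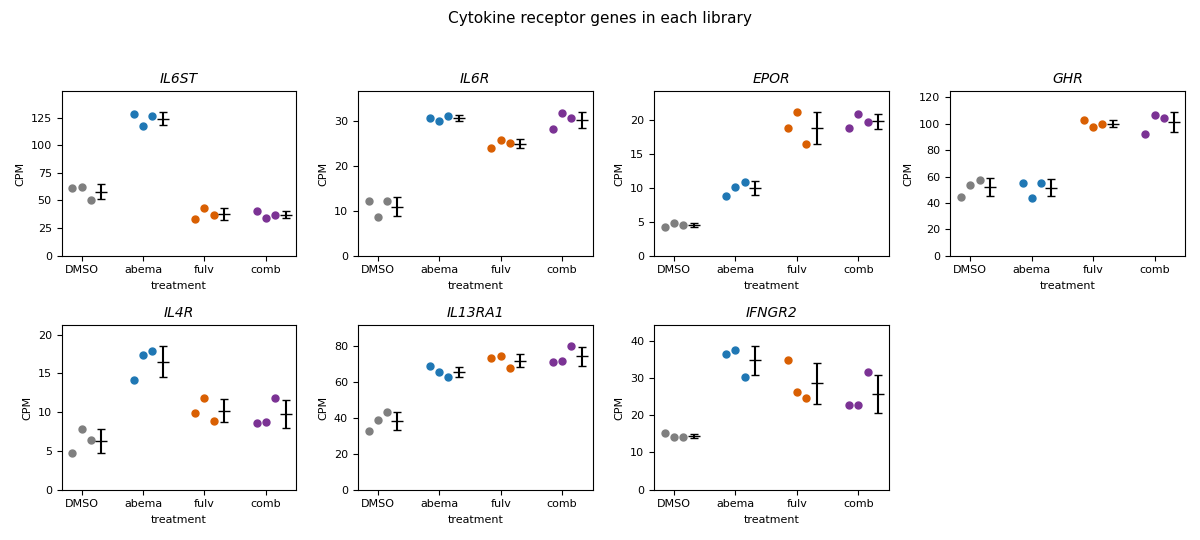
Levels of 7 cytokine receptor genes by treatment (x axis) in CPM (y axis), with each point 1 library and black bars mean ± SD of 3 libraries. IL6ST is high only with abemaciclib alone among the 4 groups, EPOR and GHR are highest with fulvestrant and the combination, and IL6R is above DMSO in all treated libraries.

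Of the 8 JAK kinases and phosphatases 7 passed the filter, and 3 rose in each of the 3 treatments, while 1 fell with abemaciclib, 2 with fulvestrant and 1 with the combination. In that order 57.1%, 71.4% and 57.1% of those tested were called, beside 41.2%, 51% and 55.2% of all genes tested. JAK2, the kinase that PRLR carries, was at 13.7, 19.2 and 16.7 CPM in DMSO, at 28.2, 27.2 and 29.1 with abemaciclib, at 25.9, 24.8 and 27.1 with fulvestrant and at 23.6, 29.2 and 26.6 with the combination. Every treated library lay above every DMSO library, and JAK2 rose by 0.74 ± 0.15 with abemaciclib (adjusted p = 0.000171), 0.63 ± 0.15 with fulvestrant (adjusted p = 0.00085) and 0.66 ± 0.15 with the combination (adjusted p = 0.00039). JAK1 rose by 0.57 ± 0.13, 0.74 ± 0.13 and 0.69 ± 0.13, with adjusted p of 0.000857, 2.63e-05 and 5.15e-05. TYK2 rose by 0.50 ± 0.13, 0.45 ± 0.13 and 0.57 ± 0.13, with adjusted p of 0.00291, 0.00549 and 0.000456. PTPN2, a phosphatase that removes phosphate from JAK and STAT proteins, fell, with log2 fold changes of −0.82 ± 0.21 with fulvestrant (adjusted p = 0.00188) and −1.03 ± 0.21 with the combination (adjusted p = 0.000145). With abemaciclib its value was −0.63 ± 0.20 (adjusted p = 0.0135), which did not pass without abemaciclib replicate 1 (−0.49). The other gene that fell with fulvestrant was PTPN11, which encodes the phosphatase SHP2 and is named here after its values were seen (−0.29 ± 0.09, adjusted p = 0.0117).

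STAT4, a factor of T cell cytokine signals, had no reads. STAT2, a factor of interferon signalling, rose with fulvestrant, by 0.58 ± 0.18 (adjusted p = 0.00955). It was also called higher with the combination than with DMSO, at 0.45 to 0.61 with 1 library left out. That call did not hold without DMSO replicate 3 (0.45).

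Of 10 other SOCS, PIAS and adaptor inhibitors 9 passed the filter, with 1 called with abemaciclib, 5 with fulvestrant (4 rose and 1 fell) and 3 with the combination (2 rose and 1 fell). These calls are 11.1%, 55.6% and 33.3% of those tested, beside 41.2%, 51% and 55.2% of all genes tested. PIAS3, which holds STAT3 off DNA, rose by 0.52 ± 0.11 (adjusted p = 0.000331), 0.68 ± 0.11 (adjusted p = 7.58e-06) and 0.68 ± 0.11 (adjusted p = 5.2e-06) in the 3 treatments. SOCS5 rose with fulvestrant, by 0.90 ± 0.25 (adjusted p = 0.00339), and SOCS4 was higher with the combination than with abemaciclib, by 0.59 ± 0.18 (adjusted p = 0.0114), a call that did not hold without combination replicate 2 (0.54). CBL, a ubiquitin ligase for activated receptors, fell with fulvestrant and with the combination, with log2 fold changes of −0.68 ± 0.14 (adjusted p = 0.000292) and −0.64 ± 0.14 (adjusted p = 0.000376). Among the 4 genes whose proteins join the SOCS box to its ligase, ELOC fell with fulvestrant (−0.41 ± 0.11, adjusted p = 0.00309) and with the combination (−0.76 ± 0.11, adjusted p = 1.84e-06), and ELOB fell with abemaciclib (−0.29 ± 0.08, adjusted p = 0.00275).

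Target genes of STAT5 and prolactin other than CISH and SOCS2 moved in both directions. Of 14 such genes 5 passed the filter, and 2 were called with abemaciclib (1 rose and 1 fell) and 3 with each of the other treatments (1 rose and 2 fell). Called shares were 40%, 60% and 60% of those tested, beside 41.2%, 51% and 55.2% of all genes tested. BCL2L1, which encodes the survival protein Bcl-xL, rose by 0.54 ± 0.13, 0.90 ± 0.13 and 1.07 ± 0.12, with adjusted p of 0.00132, 1.4e-06 and 4.82e-08. BCL6, which STAT5 represses in other cells, fell with fulvestrant (−1.03 ± 0.22, adjusted p = 0.000309) and with the combination (−0.87 ± 0.21, adjusted p = 0.000959). PIM1, a kinase gene chosen after its values were seen, had 9, 26 and 27 reads in DMSO, none in any abemaciclib or combination library and 1 read in each fulvestrant library. Its DMSO mean was 6.59-fold above the floor of 3 counts in an abemaciclib library of mean size. For a combination library it was 6.91-fold above that floor. The spread of the DMSO libraries is not part of these folds. The ratio of DMSO to fulvestrant was 19.1 (95% interval 6.24 to 95.2, counting error only). The milk protein genes CSN1S1, CSN2, CSN3 and LALBA had no reads.

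Of 8 STAT3 target genes 5 passed the filter, and 4 rose with abemaciclib and 4 with fulvestrant, while with the combination 4 rose and 1, CEBPD, fell. Called shares were 80%, 80% and 100% of the 5 tested, beside 41.2%, 51% and 55.2% of all genes tested. With 5 genes in a list chosen with earlier results known, nothing is read from these shares. MCL1, a survival gene, rose by 0.87 ± 0.09, 1.05 ± 0.09 and 1.13 ± 0.09, with adjusted p of 9.99e-09, 1.43e-10 and 2.37e-11. JUNB, an early-response transcription factor gene, rose by 0.84 ± 0.12, 1.31 ± 0.12 and 1.35 ± 0.12, with adjusted p of 2.33e-05, 3.55e-08 and 1.86e-08. BCL3, a partner of NF-κB, was at 102.7 ± 7.78 CPM in DMSO, 99.2 ± 11.1 with abemaciclib, 255.0 ± 27.5 with fulvestrant and 236.7 ± 5.26 with the combination, and rose by 1.31 ± 0.09 with fulvestrant (adjusted p = 2.74e-12). CEBPD, a gene of the acute-phase response, was at 5.18 ± 0.138 CPM in DMSO, 10.3 ± 1.07 with abemaciclib, 4.59 ± 0.736 with fulvestrant and 3.18 ± 0.111 with the combination. It rose with abemaciclib by 0.99 ± 0.23 (adjusted p = 0.00119) and was lower with the combination than with abemaciclib (−1.69 ± 0.25, adjusted p = 5.26e-06). Its value for the combination against DMSO was −0.70 ± 0.28 (adjusted p = 0.0344), a call that was lost by DESeq2 (adjusted p = 0.076), without a filter on low counts (adjusted p = 0.106) and without any 1 of the 6 DMSO and combination libraries (−0.73 to −0.68).

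**Figure D4:**
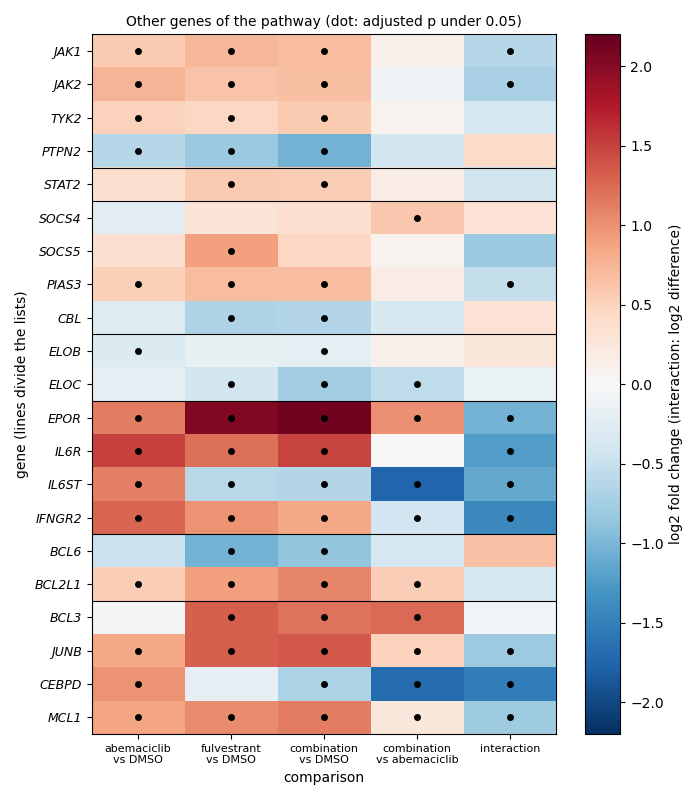
Log2 fold changes (colour) of 21 other pathway genes picked by the rule for named genes (y axis, lines dividing the lists) in 4 comparisons and the interaction (x axis), with a black dot where the adjusted p was under 0.05. JAK1, JAK2 and TYK2 are above 0 in all 3 treatments, IL6ST changes sign between abemaciclib and fulvestrant, and the interaction is negative at each of the 10 genes dotted there.

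Against DMSO the tested neighbours of SOCS2 had smaller fitted log2 fold changes than SOCS2 and its antisense transcript in each of the 3 treatments. Within 250 kb of the SOCS2 start 10 other annotated genes lie, SOCS2-AS1 not counted, and 4 of them passed the filter. Distances run from the SOCS2 start to that of the neighbour, negative upstream. NUDT4, whose start is at −191.9 kb, fell with abemaciclib (−0.48 ± 0.08, adjusted p = 3.99e-05) and rose with fulvestrant (0.63 ± 0.08, adjusted p = 2.78e-07) and with the combination (0.65 ± 0.08, adjusted p = 1.38e-07). MRPL42, at −102.3 kb, was lower with the combination than with abemaciclib (−0.42 ± 0.10, adjusted p = 0.00188). UBE2N, at −127.9 kb, was at 90.2 ± 4.08 CPM in DMSO and 97.6 ± 12.8 with fulvestrant and passed in no comparison. CRADD, at 107.6 kb, was at 5.94 ± 1.07 CPM in DMSO, 8.89 ± 2.09 with fulvestrant and 9.37 ± 0.644 with the combination. Its rise with the combination was 0.66 ± 0.25 (adjusted p = 0.0257), which did not hold without DMSO replicate 2 (0.51) or combination replicate 1 (0.62), nor by DESeq2 (adjusted p = 0.0584).

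**Figure D5:**
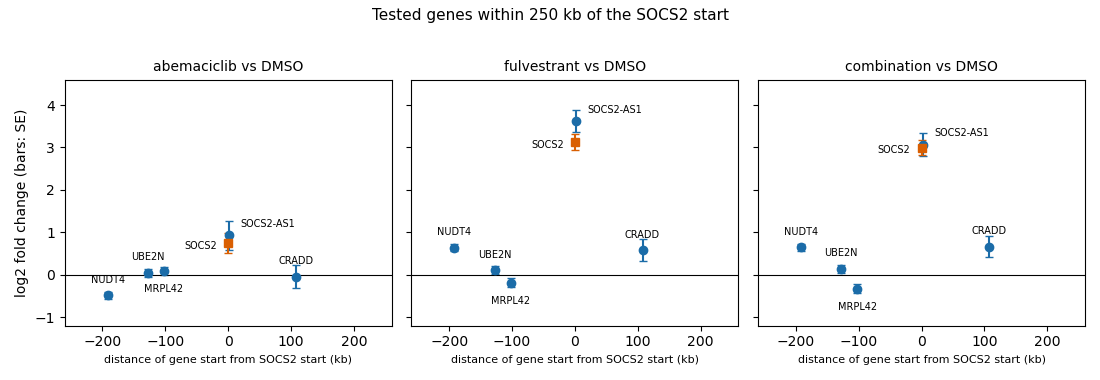
Log2 fold change against DMSO (y axis, bars SE) of SOCS2 (square) and of the tested genes around it (circles) by distance of the gene start from the SOCS2 start in kb (x axis), in the 3 treatments. With fulvestrant and with the combination SOCS2 and SOCS2-AS1 lie near 3 or above, while the other 4 genes lie under 1.

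MAPKAPK3, a kinase gene that starts 0.254 kb from CISH and is read in the opposite direction, did not pass the test in any comparison. It was at 27.1 ± 4.74 CPM in DMSO, 26.1 ± 3.89 with abemaciclib, 23.2 ± 0.599 with fulvestrant and 22.6 ± 3.94 with the combination. Its log2 fold changes against DMSO were −0.04 ± 0.16, −0.21 ± 0.16 and −0.25 ± 0.16. The 2 genes overlap by 255 bases, of which 218 are exonic in both. Of 14 annotated genes within 250 kb of the CISH start 4 passed the filter, and DOCK3, HEMK1 and CACNA2D2, the other 3, stayed at a mean of 7.77 CPM or less and were not called in any comparison. Around PRLR none of the 3 annotated genes passed the filter.

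The genes most alike in pattern were ranked by Pearson correlation of log2 CPM over the 12 libraries among 9878 genes with a mean of at least 5 CPM. The libraries fall into 4 treatment groups, so a high value says mainly that group means move in parallel, and no p is given. For SOCS2 the 5 closest were ALDH4A1 (r = 0.991), PDP1 (0.988), SH3RF1 (0.988), NDRG1 (0.987) and GALNT10 (0.986). Of the members, SOCS2-AS1 was at 0.961 (rank 77) and PRLR at 0.948 (rank 154). STAT3 was at 0.739, CISH at 0.250, STAT5B at 0.168 and SOCS3 at −0.343. NDRG1, a hypoxia-responsive gene, was at 114.1 ± 12.3 CPM in DMSO, 203.6 ± 14.2 with abemaciclib, 910.0 ± 81.5 with fulvestrant and 885.7 ± 43.0 with the combination. For CISH they were FAM102A (0.971), ZNRF1 (0.970), KLHL36 (0.949), CTSD (0.949) and THBS1 (0.949), of which CTSD, for the lysosomal protease cathepsin D, was at 175.2 ± 16.2, 404.9 ± 14.9, 282.6 ± 47.3 and 268.9 ± 7.48 CPM in the same order. For PRLR they included TMEM59 (0.983), REEP1 (0.981), ZFP36L2 (0.980) and TMC4 (0.980).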

How the data were processed

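RNA from CAMA-1 cells was sequenced from the 3′ end in 12 libraries, 3 for each of 4 treatment labels. The table deposited by the authors holds raw counts by gene symbol; 76 symbols fill 1079 of its rows, which hold 0.0160% of reads and were kept as separate rows (17 of those tested). The study's methods state that reads were trimmed with BBDuk 38.90, aligned to GRCh38 with STAR 2.7.5b and counted with featureCounts (Subread 2.0.1) on GENCODE 35; the strand setting is not given in the sources used here. The 44 rows without a name held 0 reads and were left out. Reads without molecular identifiers are not independent molecules, so intervals and floors cover counting error only. Totals of 3299119 to 5164667 counts limit genes of a few reads.

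The analysis used edgeR 4.0.16 (limma 3.58.1, R 4.3.3): filterByExpr by group (minimum count 10, total 15), TMM factors, 1 model of 4 group means over all 12 libraries, robust quasi-likelihood F tests for 5 comparisons and the interaction, and Benjamini-Hochberg adjustment over 11803 genes at 0.05. Standard errors came from the F statistic. The study describes the replicates as biological replicates of 1 experiment, and p-values measure the spread between them. Alternatives were DESeq2 1.42.0, other scaling factors and filters, the compared groups alone, a replicate block and each library left out.

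The members, pathway and marker lists were chosen with earlier results of these data known. Named pathway genes were, per list, the 4 of largest absolute fold change among genes called at least once with at least 5 CPM in one group, with GHR, IL4R, IL13RA1 and PIM1 added after their values were seen. Not every gene selected is reported here. Coordinates and exons are from GENCODE v44 on GRCh38. The scripts were tested on simulated counts.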

Additional observations from a re-analysis of the deposited data

Results flagged for a closer look

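These results differed between the abemaciclib effect with fulvestrant and that without it, by the interaction term in edgeR's quasi-likelihood test; all values are log2 differences with SE. In the receptors it was −1.12 ± 0.16 for IL6ST (adjusted p = 1.07e-05), −1.22 ± 0.21 for IL6R (adjusted p = 8.95e-05), −1.42 ± 0.23 for IFNGR2 (adjusted p = 4.83e-05), −1.39 ± 0.31 for IL4R (adjusted p = 0.00163), −1.04 ± 0.27 for EPOR (adjusted p = 0.00658) and −0.72 ± 0.15 for IL13RA1 (adjusted p = 0.000871). In the kinases it was −0.72 ± 0.20 for JAK2 (adjusted p = 0.0118) and −0.62 ± 0.18 for JAK1 (adjusted p = 0.0126). In the STAT3 targets it was −1.52 ± 0.37 for CEBPD (adjusted p = 0.0041), −0.80 ± 0.17 for JUNB (adjusted p = 0.00225) and −0.79 ± 0.12 for MCL1 (adjusted p = 4.07e-05). It was −0.52 ± 0.15 for PIAS3 (adjusted p = 0.0134). NUDT4, a neighbour of SOCS2, had the opposite sign, 0.50 ± 0.12 (adjusted p = 0.00252).

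PRLR was flagged on the separation of its libraries, and its interaction value was −0.58. Every abemaciclib library lay above every DMSO library, and every combination library lay below every fulvestrant library. PRLR is among the 7 genes that passed the filter, of which 0 were called between the combination and fulvestrant. Since PRLR was chosen on these values, nothing is read from this pattern.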

How the results depend on the processing

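Scaling, filters, DESeq2 and the replicate block turned no direction. Calls of genes between the combination and fulvestrant were 227, with 91 at 10 or more counts in every library, 125 from the compared groups alone, and 146 to 588 with 1 library left out (588 without fulvestrant replicate 3, 146 without combination replicate 3). Other ranges with 1 library left out were 3998 to 5362 for abemaciclib, 5359 to 6162 for fulvestrant and 5835 to 6969 for the combination, each against DMSO, 3202 to 4495 for the combination against abemaciclib and 1982 to 3318 for the interaction. For pathway genes they were 18 to 21, 27 to 30, 22 to 28, 10 to 14 and 13 to 18 in that order, and 0 to 1 for the combination against fulvestrant, with 1 without fulvestrant replicate 3. By Spearman correlation 0 of the 5 genes most alike to SOCS2, 2 of 5 for CISH and 0 of 5 for PRLR remained.

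Near 0, leaving out 1 library turned signs. Log2 ranges for STAT5B were −0.18 to 0.31 (fulvestrant against DMSO), −0.071 to 0.16 (combination against DMSO), −0.27 to 0.22 (combination against fulvestrant) and −0.065 to 0.43 (interaction). For SOCS3 they were −0.10 to 0.21 (fulvestrant against DMSO), −0.019 to 0.27 (combination against DMSO) and −0.080 to 0.19 (combination against fulvestrant), and with abemaciclib −0.12 to 0.079 for GHR and −0.17 to 0.061 for MAPKAPK3. Among the members, calls were lost for SOCS2 without DMSO replicate 2 with abemaciclib (0.61) and in the interaction (−0.75), for SOCS2-AS1 with abemaciclib without either of DMSO replicates 2 and 3 (0.92 and 0.71) or abemaciclib replicates 2 and 3 (0.91 and 0.64), for CISH with fulvestrant without fulvestrant replicate 2 (0.29) and for CISH between the combination and abemaciclib without any of 4 libraries (−0.37 to −0.34). STAT3 between the combination and abemaciclib passed with the compared groups alone (0.18), without abemaciclib replicate 1 (0.24) and without fulvestrant replicate 3 (0.19). The members were chosen on these values, so nothing is read from their calls gained or lost. CPM of SOCS2-AS1 with fulvestrant was 32.6 on unscaled totals.

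With a replicate block all 42 member values and all 96 values of other named genes kept their direction and call. Pairing by replicate number was checked between libraries of different groups, on log2 CPM after the mean of each group was taken off. The median correlation of same-numbered libraries was then 0.023 over 18 pairs, beside −0.0002 over 36 pairs of unlike number. For 5 of 12 libraries the highest such correlation was with a library of their own number. With 3 libraries per group, this check cannot settle whether the numbers pair the libraries. The compared groups alone were not run for the interaction. Depth limits STAT5A, SOCS1 and PIM1, which have few or no reads.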
